A study of Mus musculus with 10 samples.

Results

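The data describe 10 genes of the Notch pathway and its Atoh1 switch in crypts of the mouse small intestine, chosen by name from the 35006 gene names in the count tables. They are the ligands Dll1, Dll4, Jag1 and Jag2, the ligand and receptor modifier Lfng, the receptors Notch1 and Notch2, the nuclear factor Rbpj, the target Hes1, and Atoh1. All 10 were found in the tables, and all 10 passed the filter on low counts with 13706 genes in all.

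In Notch signaling, a ligand on one cell binds a receptor on its neighbor, and proteases then release the intracellular part of the receptor. This fragment joins Rbpj in the nucleus and switches on genes such as Hes1, a repressor that holds Atoh1 down. In the intestinal crypt, cells with active Notch become absorptive cells or stay stem cells, while cells that keep Atoh1 enter the secretory lineages (Paneth, goblet, enteroendocrine) and present Delta ligands to their neighbors.

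Live EpCAM+ epithelial cells came from EF1a-OSCAR mice of the C57BL6/J strain, and 10000 cells of each population were sorted for poly-A RNA sequencing. These mice carry OSCAR, a reporter of CDK9 activity, at the Rosa26 locus under the EF1a promoter, and Vasa-Cre removed its stop cassette in the germ line, so all groups share the transgene and all tissues express it. OSCAR is the ratio of VeN90, a Venus protein that dims when CDK9 phosphorylates it, to mCherry, and EF1a low or high is the overall brightness of both proteins. P1 was OSCARlow EF1alow, P2 OSCARhigh EF1alow, P3 OSCARlow EF1ahigh, P4 OSCARmed EF1alow and P5 OSCARmed EF1ahigh, with 2 libraries of each and 10 in all. The age of the mice was not given in the sources used here. The study calls the 2 libraries biological replicates, and no label ties a library to an animal.

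Libraries held 3857612 to 6485823 counts on genes. The P3 libraries stood apart, because mitochondrially encoded genes took 36.1% and 59.2% of their counts against 1.04% to 5.19% in the other 8 libraries. The study places secretory cell markers, and Dll1, in P3, whereas in the deposited counts Dll1 and the marker sums were highest in the libraries labelled P2. The 7 Paneth markers summed to 400500 to 563400 CPM (counts of a gene scaled to a common library total) in P2 and to 501.7 to 63170 CPM elsewhere. The 7 goblet markers summed to 50960 to 113900 CPM in P2 against 1854 to 9532 CPM elsewhere. Of the goblet markers Clca1 alone was not highest in P2, with 3.35 and 4.91 CPM there, 19.4 and 15.1 CPM in P4 and 1.36 and 4.85 CPM in P1. The study also reports Krt19 as enriched in P2. Krt19 measured 267 and 541 CPM in the libraries labelled P2 and was highest in those labelled P3, with 2668 and 1632 CPM. No library was renamed, and P2 and P3 below mean the libraries that carry these labels. If the labels of these populations were exchanged, the OSCAR and EF1a levels given for P2 and P3 would be exchanged too, so every statement that ties them to a gate rests on the label. Epithelial markers were present in all 10 libraries (3618 to 8882 CPM for 6 genes).

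The 250 bases upstream of the start were read for the members whose RNA separated P2 from the rest, to show the sequence next to the genes that the results turn on. They come from the RefSeq promoter table of assembly GRCm38.p6, which held 9 of the 10 members in 11 entries, and each was found exactly once in the NCBIM37 genome (mm9) that the counts use. Capitals mark 3 short motifs searched on both strands: TGGGAA, the core bound by Rbpj; CAGCTG, an E-box of the kind Atoh1 binds; and CACNAG, an N-box bound by Hes proteins. The motifs do not overlap in the sequences shown, which run 5′ to 3′ on the strand of the gene and end 1 base before the RefSeq start.
Dll1 (chr17:15513897-15514146, minus strand): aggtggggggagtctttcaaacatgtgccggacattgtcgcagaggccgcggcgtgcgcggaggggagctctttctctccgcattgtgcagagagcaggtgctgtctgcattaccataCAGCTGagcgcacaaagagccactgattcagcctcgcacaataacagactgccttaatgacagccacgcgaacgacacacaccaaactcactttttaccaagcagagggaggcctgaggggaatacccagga
Dll4 (chr2:119151270-119151519, plus strand): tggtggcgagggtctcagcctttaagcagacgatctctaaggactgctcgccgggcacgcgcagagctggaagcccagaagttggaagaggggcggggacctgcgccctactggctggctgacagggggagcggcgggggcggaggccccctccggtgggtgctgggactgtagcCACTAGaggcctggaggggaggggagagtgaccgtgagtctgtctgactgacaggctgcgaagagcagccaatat
Lfng (chr5:141083045-141083294, plus strand): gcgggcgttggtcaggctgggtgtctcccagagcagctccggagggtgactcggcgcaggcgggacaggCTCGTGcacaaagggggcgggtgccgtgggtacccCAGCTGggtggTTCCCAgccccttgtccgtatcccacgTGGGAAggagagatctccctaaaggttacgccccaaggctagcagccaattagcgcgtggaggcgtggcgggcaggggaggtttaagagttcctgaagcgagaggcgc
Notch2 (chr3:97817211-97817460, plus strand): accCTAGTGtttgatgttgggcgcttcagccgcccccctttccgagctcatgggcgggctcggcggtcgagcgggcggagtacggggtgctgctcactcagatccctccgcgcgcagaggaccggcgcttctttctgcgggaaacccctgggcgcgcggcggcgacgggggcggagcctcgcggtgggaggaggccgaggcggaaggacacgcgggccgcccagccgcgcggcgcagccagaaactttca
Atoh1 (chr6:64678869-64679118, plus strand): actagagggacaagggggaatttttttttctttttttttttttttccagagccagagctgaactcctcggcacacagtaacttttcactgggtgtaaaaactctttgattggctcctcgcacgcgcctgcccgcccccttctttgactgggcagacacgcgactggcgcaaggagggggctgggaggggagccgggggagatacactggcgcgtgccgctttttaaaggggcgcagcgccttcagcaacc
Of these, the Lfng sequence held 2 TGGGAA matches, at -135 to -130 and -108 to -103 counted back from the start, beside 1 CAGCTG and 1 CACNAG. The Dll1 window shown held 1 CAGCTG, and the other Dll1 entry of the table (chr17:15512788-15513037) held none of the 3. Dll4 and Notch2 held 1 CACNAG each, and the Atoh1 window held none of the 3. Among 32851 RefSeq promoter windows of the same length, 21.6% held TGGGAA, 13.0% held CAGCTG and 36.7% held CACNAG. These matches are descriptions of the letters only. Hes1 is not in the promoter table.

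Across the 5 populations, 6 of the 10 genes differed (Dll1, Dll4, Notch1, Notch2, Hes1 and Atoh1) at an adjusted p under 0.01, where 39.1% of all 13706 genes were called. The test was edgeR's quasi-likelihood F test with Benjamini-Hochberg adjustment over all genes, written below as edgeR adjusted p. The comparison that carried most of these calls set P2 against the average of the other 4 populations. There Atoh1, Dll4 and Dll1 were higher and Notch2, Notch1 and Hes1 were lower, 6 of 10 against a background of 28.1% (17.1% higher and 11.1% lower). The same 6 genes were called when both P3 libraries were left out.

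**Figure D1:**
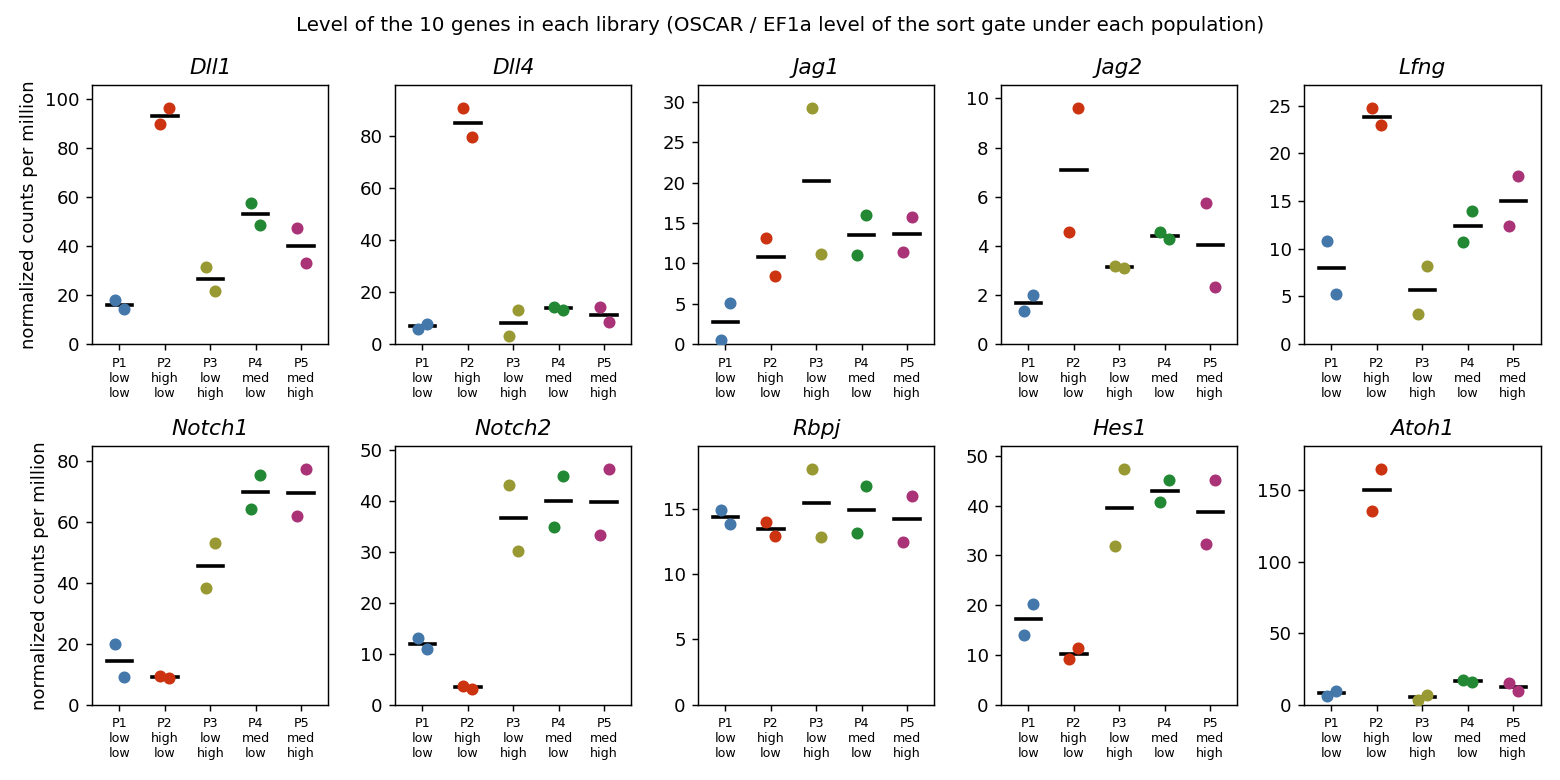
Level of each of the 10 genes in normalized CPM (vertical axes, linear and starting at 0) in the 2 libraries of each population, with the OSCAR and EF1a levels of the gate written below; points are libraries and bars are their mean. Both P2 libraries lie above the other 8 for Dll1, Dll4, Lfng and Atoh1 and below them for Notch2 and Hes1, and Rbpj lies between 12.5 and 18.1 in every library.

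Dll1 (chromosome 17, 15504318 to 15513836, minus strand, NCBIM37) encodes a Delta ligand that intestinal secretory progenitors present to their neighbors. Its level was 89.9 and 96.1 CPM in the libraries labelled P2, 57.7 and 48.6 CPM in P4, 47.4 and 32.9 CPM in P5, 31.3 and 21.8 CPM in P3, and 17.8 and 14.4 CPM in P1. Both P2 libraries were above all others, P1 was below all others, and both P4 libraries lay just above both P5 libraries. The study reports Dll1 as more enriched in P3. The log2 fold change of P2 against the average of the rest was 1.59 (SE 0.19, edgeR adjusted p = 0.000166). Between neighbors in this order no difference passed the threshold, including P2 against P4 (log2 fold change 0.81, edgeR adjusted p = 0.0401), whereas P4 exceeded P1 by 1.72 (edgeR adjusted p = 0.00160) and P5 exceeded P1 by 1.32 (edgeR adjusted p = 0.00503). Exons of Dll1 overlap A930024N18Rik on the opposite strand, and reads were counted without strand, so reads wholly within the overlap cannot be assigned to either gene.

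Dll4 (chromosome 2, 119151520 to 119161698, plus strand) encodes the other Delta ligand of the crypt. It measured 90.5 and 79.6 CPM in P2, 14.4 and 12.9 CPM in P4, 14.1 and 8.47 CPM in P5, 3.19 and 12.9 CPM in P3, and 5.76 and 7.86 CPM in P1. P2 stood clear of every other library, and the other 4 populations overlapped in part. P2 exceeded the average of the rest by 3.12 on the log2 scale (SE 0.31, edgeR adjusted p = 7.07e-05) and exceeded the next population, P4, by 2.64 (SE 0.47, edgeR adjusted p = 0.00331). Within a library, the ratio of Dll4 to Dll1 per kb of exon was 1.10 and 0.907 in P2 and between 0.111 and 0.648 elsewhere, so both Delta ligands were at similar levels per kb in P2 and Dll1 was ahead in the other 8 libraries. Exons of Dll4 overlap Gm14207 on the opposite strand.

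Neither Jagged ligand was called in P2 against the rest. Jag1 (chromosome 2, 136907192 to 136942380, minus strand) measured 13.1 and 8.48 CPM in P2, 29.2 and 11.1 CPM in P3, 11.1 and 16.0 CPM in P4, 11.5 and 15.8 CPM in P5, and 0.508 and 5.02 CPM in P1. P1 was lowest in both libraries and the other populations overlapped. The P2 difference was 0.10 (95% interval -1.17 to 1.37, edgeR adjusted p = 0.910), and none of the 10 pairs of populations passed the threshold for Jag1. Jag2 (chromosome 12, 114146801 to 114167706, minus strand) measured 4.57 and 9.59 CPM in P2 and between 1.36 and 5.73 CPM elsewhere, from 58 reads in both P2 libraries together. The P2 libraries of Jag2 overlapped with P5, and the difference of 1.20 (SE 0.42) missed the threshold (edgeR adjusted p = 0.0450).

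Lfng (chromosome 5, 141083295 to 141091497, plus strand) encodes a glycosyltransferase that adds a sugar to Notch receptors and alters which ligands they answer to. It measured 24.7 and 23.0 CPM in P2, 12.4 and 17.6 CPM in P5, 10.7 and 14.0 CPM in P4, 10.8 and 5.19 CPM in P1, and 3.19 and 8.22 CPM in P3. Both P2 libraries were above the other 8, yet the difference of 1.29 (SE 0.33) missed the threshold with an edgeR adjusted p of 0.0116. Without P1 replicate 1, P3 replicate 1 or P3 replicate 2 it passed (edgeR adjusted p = 0.00407 to 0.00996), and without both P3 libraries it did not (1.06, edgeR adjusted p = 0.0166). Its neighbor populations in the order P2, P5, P4, P1, P3 did not differ past the threshold.

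Both receptors were low in P2. Notch1 (chromosome 2, 26313423 to 26372183, minus strand) measured 9.45 and 8.70 CPM in P2, 19.8 and 9.20 CPM in P1, 38.2 and 53.3 CPM in P3, 64.3 and 75.4 CPM in P4, and 62.1 and 77.4 CPM in P5. P1 and P2 overlapped at the bottom, P3 lay between, and P4 and P5 overlapped at the top. The P2 difference was -2.23 (SE 0.32, edgeR adjusted p = 0.000547), and P3 exceeded P1 by 1.66 (SE 0.35, edgeR adjusted p = 0.00698), the step in the order at which neighbors differed. That step lost its call when any library other than P3 replicate 1 was left out. Exons of Notch1 overlap 0610009E02Rik and Gm13568 on the opposite strand.

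Notch2 (chromosome 3, 97817461 to 97954290, plus strand) had the largest fall among the 10 genes in P2. It measured 3.66 and 3.12 CPM in P2, 13.0 and 10.9 CPM in P1, 43.0 and 30.2 CPM in P3, 34.9 and 44.9 CPM in P4, and 33.4 and 46.2 CPM in P5. The P2 libraries, with 12 and 14 reads, were below all others, P1 came next without overlap, and P3, P4 and P5 overlapped. P2 was 8.50-fold below the average of the rest (log2 fold change -3.09, SE 0.30, edgeR adjusted p = 5.91e-05), 3.53-fold below P1 (edgeR adjusted p = 0.00197), and P1 was 3.03-fold below P3 (edgeR adjusted p = 0.00399).

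Rbpj (chromosome 5, 53947018 to 54048684, plus strand), the DNA-binding partner of the released receptor, was the most even of the 10. It measured 14.0 and 12.9 CPM in P2 and between 12.5 and 18.1 CPM in the other 8 libraries. The P2 difference was -0.13 with a 95% interval of -0.66 to 0.41, and no pair of populations passed the threshold. RefSeq lists pseudogenes of Rbpj, and reads that aligned to more than 1 place were not counted, so its level is uncertain.

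Hes1 (chromosome 16, 30064470 to 30067882, plus strand), the repressor that Notch switches on, was lowest in P2. It measured 9.14 and 11.4 CPM in P2, 14.1 and 20.2 CPM in P1, 31.9 and 47.3 CPM in P3, 40.7 and 45.0 CPM in P4, and 32.3 and 45.2 CPM in P5. P2 and P1 were low without overlapping each other, and P3, P4 and P5 overlapped. P2 was 3.17-fold below the average of the rest (log2 fold change -1.66, SE 0.27, edgeR adjusted p = 0.00103). Without P2 replicate 1 this difference was -1.53 with an edgeR adjusted p of 0.0167, past the threshold no longer, and no step between neighbors passed it.

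Atoh1 (chromosome 6, 64679140 to 64681227, plus strand, a gene of 1 exon) is the transcription factor that commits crypt cells to secretory fates. It measured 136 and 165 CPM in P2, 17.1 and 16.2 CPM in P4, 15.4 and 9.85 CPM in P5, 6.10 and 9.70 CPM in P1, and 3.19 and 7.11 CPM in P3. P2 was far above the rest, and the other populations formed a low range in which only the P4 libraries lay above all of P1, P3 and P5. P2 was 15.3-fold above the average of the other 4 (log2 fold change 3.94, SE 0.23, edgeR adjusted p = 7.59e-06) and exceeded P4 by 3.17 (SE 0.36, edgeR adjusted p = 0.000570). Without both P3 libraries the difference of P2 from the rest was 3.67 (edgeR adjusted p = 3.34e-05).

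**Figure D2:**
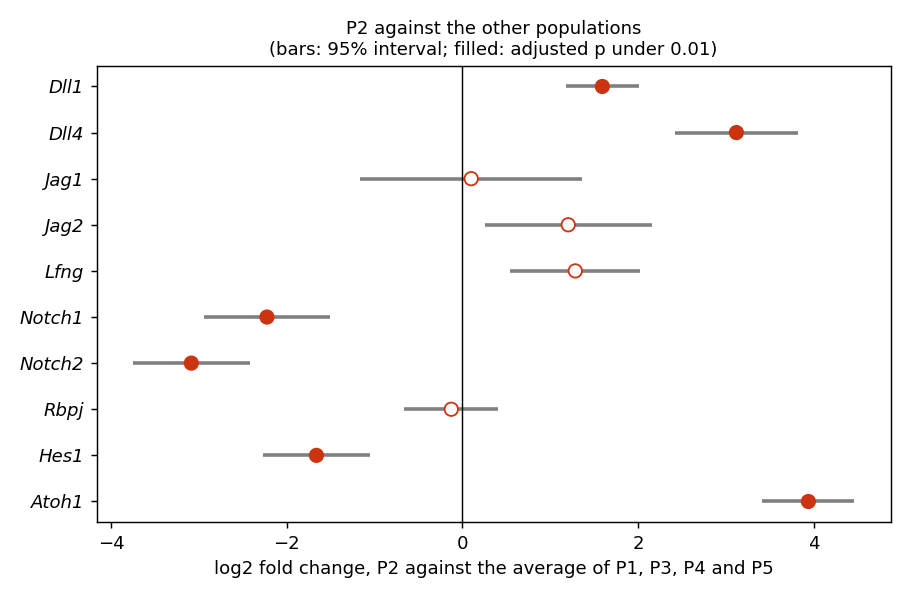
Log2 fold change of P2 against the average of P1, P3, P4 and P5 (horizontal axis) for the 10 genes; bars are 95% intervals from the model over 10 libraries, and filled points have an edgeR adjusted p under 0.01. Dll1, Dll4 and Atoh1 lie to the right, Notch1, Notch2 and Hes1 to the left, and the intervals of Jag1 and Rbpj cover 0.

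Both P2 libraries lay above the other 8 for 4 of the 10 genes, where 20.2% of all genes tested did so, and below them for 2 of the 10, where 15.0% did so. In these sorted populations, fewer cells of a type and less RNA per cell cannot be told apart. The P2 libraries also held the highest sums of tuft (360.6 to 662 CPM against 13.1 to 147.6 CPM) and enteroendocrine markers (2776 to 7037 CPM against 12.7 to 496.8 CPM), beside the Paneth and goblet sums above. Within these sums Gcg overlapped, with 21.0 and 176 CPM in P2 and 53.6 and 40.9 CPM in P4. Gfi1b overlapped with P3 replicate 1, and Il25 had at most 3 reads in a library. The part of these cell types in the differences of the 10 genes was not tested.

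Per kb of exon, which allows levels of different genes to be compared, the order of the 10 genes changed between populations. In P2 Atoh1 led with 71.9 CPM per kb, followed by Dll4 with 22.1 and Dll1 with 22.0, while Notch2 was last with 0.323. In each of the other 4 populations Hes1 led, with 8.42 CPM per kb in P1 and 19.0 to 21.0 in P3, P4 and P5, and Dll1 was next. The ratio of Atoh1 to Hes1 within a library was 14.5 and 14.1 in P2, 0.423 and 0.468 in P1, 0.410 and 0.350 in the P4 libraries, 0.464 and 0.213 in those of P5, and 0.0976 and 0.147 in those of P3. Atoh1 was thus above Hes1 in both P2 libraries and below it in the other 8, with P3 lowest. The summed level of Dll1 and Dll4 over that of Notch1 and Notch2 was 44.3 and 47.8 in P2 and between 1.02 and 3.24 in the other 8 libraries. That ratio leaves out the receptor Notch4, which is not among the 10 genes. In P2 Notch4 measured 5.52 CPM per kb, above Notch1 (0.638) and Notch2 (0.323), and in the other 4 populations 0.217 to 0.798. These ratios are given as a description, since the same genes were tested above.

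**Figure D3:**
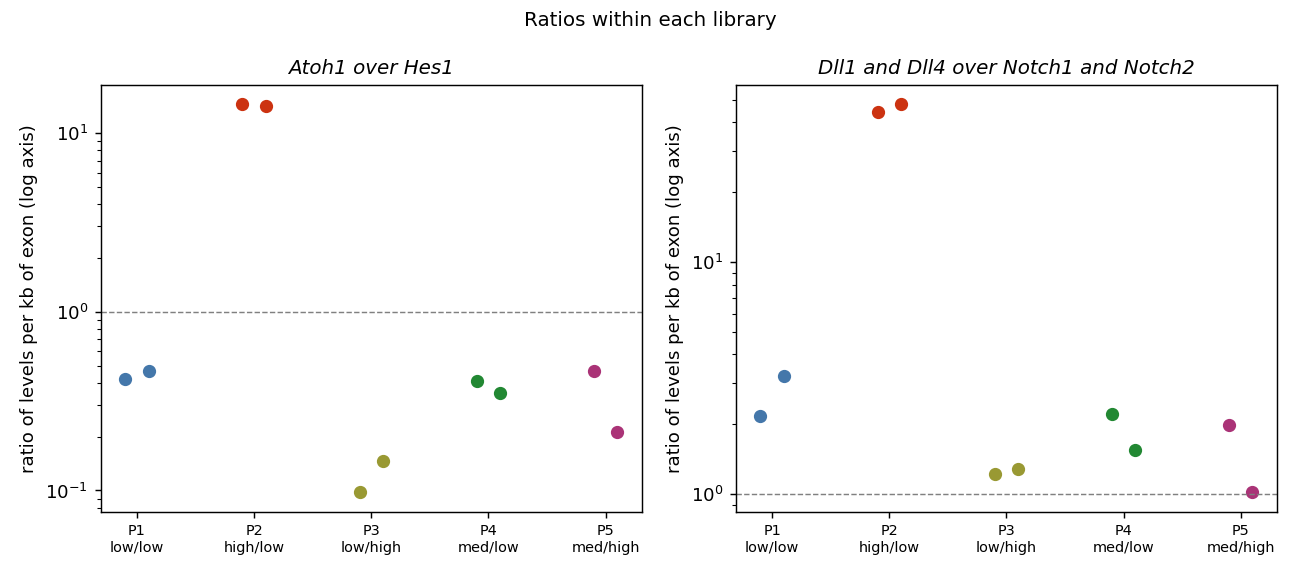
Ratio of levels per kb of exon within each library (vertical axes, log scale) for Atoh1 over Hes1 and for Dll1 plus Dll4 over Notch1 plus Notch2, by population; each point is a library and the dashed line marks a ratio of 1. The P2 libraries lie at 14.1 and 14.5 in the first panel and at 44.3 and 47.8 in the second, apart from the other 8. Notch4, a receptor that was high in P2, is not part of the second ratio.

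Pair by pair, P2 differed from P3 in 6 of the 10 genes (background 22.8%), from P5 in the same 6 (18.2%), from P4 in 5 (16.1%) and from P1 in 4 (31.8%). Atoh1, Dll4 and Notch2 were called in each of these 4 pairs, which share the P2 libraries. The pair P2 and P1 differed from the others in that Notch1 (-0.68, edgeR adjusted p = 0.145) and Hes1 (-0.73, edgeR adjusted p = 0.0753) missed the threshold, both being low in P1 as well. Dll1 was the gene that missed it between P2 and P4. With only the 4 libraries of the pair in the fit, 3 genes were called against P3 (Atoh1, Dll1 and Notch2), where 937 of 11868 genes were. Against P1 3 were called in such a fit, where 3643 of 12618 genes were. With a P2 library left out, fewer of the 10 genes and fewer of all genes were called in each of these pairs. The same held against P4 without either P4 library and against P5 without either P5 library.

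P1, the population with the highest enterocyte marker sum (19950 to 23730 CPM against 1546 to 16370 CPM), was low in several of the 10 genes. Of the enterocyte markers, Vil1, Krt20, Fabp1 and Apoa1 were highest in a P1 library, whereas Sis, Lct and Alpi were highest in P3 replicate 1. Sis measured 1612 and 852 CPM in P1 against 6664 and 1596 CPM in P3. P4 exceeded P1, at the same EF1a level and a higher OSCAR level, in Notch1 (2.27), Notch2 (1.74), Dll1 (1.72) and Hes1 (1.32), 4 of 10 against a background of 25.0% (9.98% higher). P5 exceeded P1 in Notch1 (2.26), Notch2 (1.73) and Dll1 (1.32), 3 of 10 against 21.4% (9.20% higher). P3 exceeded P1, by its label at the same OSCAR level and a higher EF1a level, in Notch1 (1.66) and Notch2 (1.60), 2 of 10 against 16.9% (8.65% higher). None of the 10 genes was lower in P4, P5 or P3 than in P1 past the threshold.

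These calls against P1 rested on few libraries. Without either P4 library no gene of the whole table passed the threshold between P4 and P1, and without P1 replicate 1 or P1 replicate 2 the count of the 10 was 1 and 2. For P5 against P1, fewer of the 10 genes and fewer of all genes were called without P5 replicate 2 or without either P1 library. For P3 against P1, Notch1 and Notch2 both lost their calls without either P1 library, where fewer of all genes were called too. Without P3 replicate 1 Notch2 lost its call and Hes1 gained one. Without any of the remaining 7 libraries Notch1 lost its call and Notch2 kept it. Upper quartile scaling moved the median of all genes between P4 and P1 from 0.06 to 0.33 and the split of called genes from 1368 higher and 2054 lower to 2028 higher and 1595 lower, and the 4 genes stayed called. Lymphocyte and myeloid markers also summed highest in P1 (721.3 to 958 CPM for 9 genes against 22.0 to 239.4 CPM), and their part was not tested.

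Among P3, P4 and P5 none of the 10 genes passed the threshold in any of the 3 pairs, and no gene of the whole table did (0.0%). At an unadjusted p under 0.05, 2 of the 10 differed between P4 and P3, 3 between P5 and P3 and 0 between P5 and P4, beside 2165, 1632 and 391 of all genes. DESeq2 called 120, 39 and 27 genes in these pairs and none of the 10. Against the average of the other 4 populations, P3 was called for 1 of the 10 genes (background 2.60%, with 0.649% lower), Atoh1, which was lower by -2.02 (SE 0.34, edgeR adjusted p = 0.00895). P2 is part of that average, P3 held 6 and 32 reads of Atoh1, and leaving out any 1 of the 10 libraries ended the call.

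The EF1a level was compared between OSCAR levels with 1 term, the P5 minus P4 difference less the P3 minus P1 difference, a test added after the data had been seen. It compares EF1a levels only if the P3 label holds. None of the 10 genes passed it at 0.01 (background 1.37%). The nearest were Notch2 at -1.61 (SE 0.39, edgeR adjusted p = 0.0255) and Notch1 at -1.67 (SE 0.47, edgeR adjusted p = 0.0405).

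The rest of the pathway was read from a list of 63 genes beside the 10, of which 56 passed the filter. Across the populations 26 of the 56 were called, where 39.1% of all genes were. Among them, Dll3, Dner and Hes7 passed the filter only through the P2 libraries, and they are also counted as higher in P2 next. In P2 against the rest 16 were higher and 2 lower, beside 17.1% and 11.1% of all genes, with a median log2 fold change of 0.06 against -0.0027 for all genes, also 0.06 with the 5 genes at 0 in a population set at their bound. Without P1 replicate 1 or 2 the count across populations was 14 and 15, and without either P4 library it was 16.

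**Figure D4:**
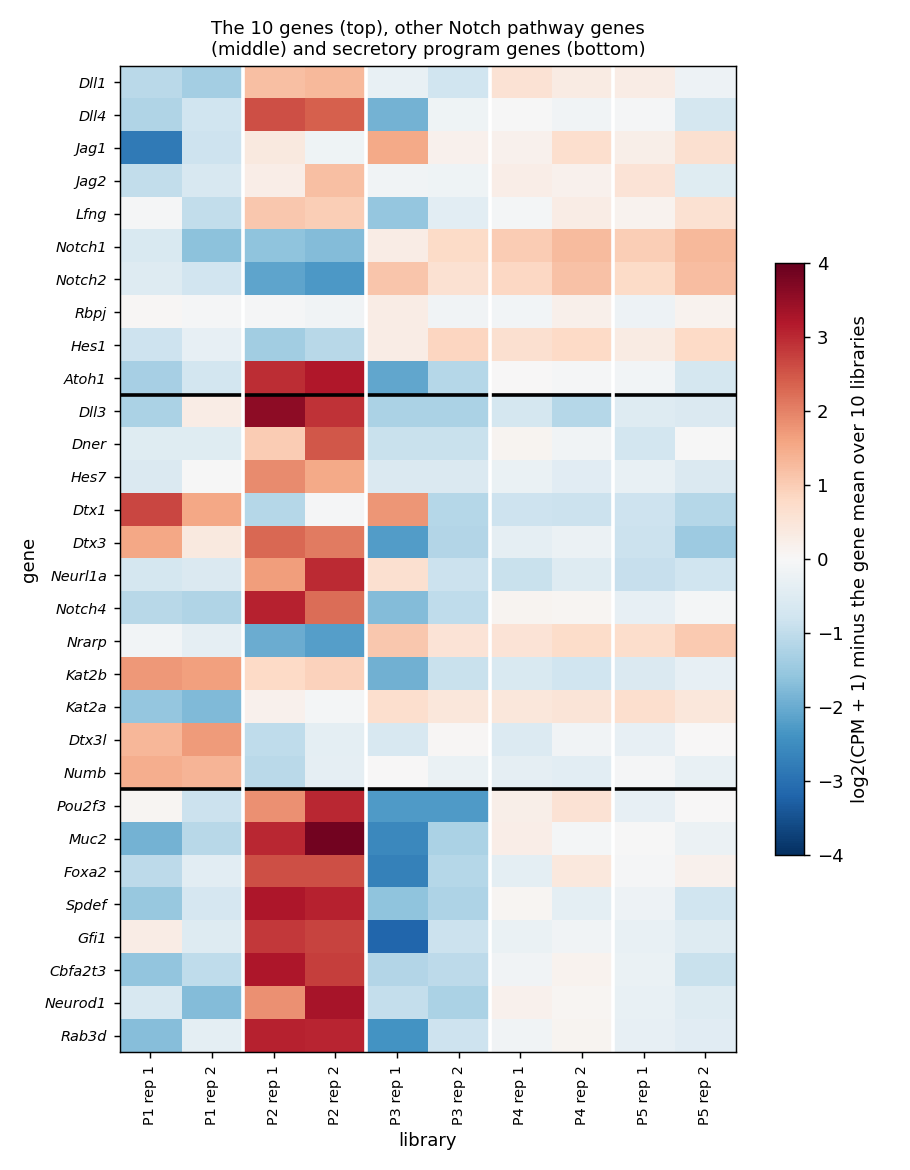
Heat map of log2(CPM + 1) minus the gene mean over the 10 libraries, with the 10 genes on top, 12 further Notch pathway genes in the middle and 8 secretory program genes at the bottom; columns are libraries in the order P1 to P5. The P2 columns are red for Atoh1, Dll4, Dll3, Notch4 and the secretory genes and blue for Notch1, Notch2, Hes1 and Nrarp.

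Among ligands beside the 10, Dll3, a Delta protein that does not activate receptors on neighbors, measured 27.7 and 17.0 CPM in P2, at most 2.01 CPM elsewhere, and had no read in P3. Its mean in P2 was at least 19.8-fold above the floor of 3 counts per library in P3. Dner, an atypical ligand, measured 2.74 and 9.37 CPM in P2 and at most 0.983 CPM elsewhere. Both passed the filter on low counts only through the P2 libraries, with 91 and 76 reads of Dll3 and 9 and 42 of Dner there. Their calls as higher in P2 than in the rest are thus not independent of the filter.

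Among receptors, Notch3 and Notch4 went the opposite way from Notch1 and Notch2, both called higher in P2 than in the rest. Notch3 averaged 3.28 CPM in P2, had no read in P1 or P3, and by pairs was called against P1 only. Notch4 measured 57.6 and 31.5 CPM in P2, 6.51 and 6.35 CPM in P4, 4.47 and 5.51 CPM in P5, 2.20 and 2.01 CPM in P1, and 1.06 and 2.44 CPM in P3. For Notch4 P2 overlapped with no other population and exceeded the rest by 3.70 (SE 0.26, edgeR adjusted p = 1.31e-05). Notch4 and Dll4 are also known from blood vessels, and of 8 endothelial markers Cdh5 and Emcn had no read in any library. The 8 summed to 10.4 to 11.6 CPM in P2, mainly Esam, and to 3.01 to 8.33 CPM elsewhere.

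Nrarp, a target of Notch that promotes turnover of the released receptor, followed Hes1 in its direction. It measured 4.88 and 4.01 CPM in P2, 20.5 and 17.1 CPM in P1, and between 32.4 and 47.8 CPM in P3, P4 and P5, with no overlap between these 3 ranges. P2 was 7.29-fold below the average of the rest (log2 fold change -2.87, SE 0.27, edgeR adjusted p = 5.45e-05). Of the 8 HES and HEY genes beside Hes1, 4 passed the filter. Hes6, Hes7 and Heyl were called higher in P2 than in the average of the rest, as were 17.1% of all genes. By pairs, none was called in P2 against P1, Hes6 was called against P3, Hes7 against P4, and both against P5. Hes7 had no read in P3 and Heyl none in P4. Hes7, the HES gene of the segmentation clock, measured 4.57 and 3.35 CPM in P2 and at most 0.502 CPM elsewhere. With 15 reads in each P2 library and at most 3 elsewhere, Hes7 passed the filter only through P2, so its calls are not independent of the filter. Hes5, another Notch target, had 4 reads in all 10 libraries together, under 3 counts in each library, so a difference was not detectable at this depth.

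Among the 14 genes of ligand endocytosis and Notch trafficking, 4 were called higher and 1 lower in P2 against the rest, where 28.1% of all genes were called. Neurl1a, a ubiquitin ligase that acts on ligands, measured 8.54 and 22.8 CPM in P2 and at most 3.72 CPM elsewhere (3.98, SE 0.47, edgeR adjusted p = 0.000169). Dtx3, of the Deltex family, measured 22.6 and 19.0 CPM in P2 and at most 13.0 CPM elsewhere (3.23, SE 0.44, edgeR adjusted p = 0.000300). Against P1 alone, the P2 difference of Dtx3 was 1.18 (SE 0.58) and missed the threshold (edgeR adjusted p = 0.114). Numb, an inhibitor of Notch, was highest in P1 with 245 and 227 CPM against 40.9 to 88.7 CPM in the other 8 libraries. P4 was below P1 for Numb by 3.53-fold (edgeR adjusted p = 0.00127), and P2 was below the average of the rest by 1.81-fold (edgeR adjusted p = 0.00996). By pairs, Numb was called lower in P2 than in P1 and was not called in P2 against P3, P4 or P5. Dtx3l was also highest in P1, with 121 and 160 CPM in P1 and 23.5 to 49.5 CPM elsewhere. Dtx1 measured 12.9 and 5.35 CPM in P1, 6.37 CPM in P3 replicate 1 and at most 1.12 CPM in the other 7 libraries.

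Kat2a and Kat2b, acetyltransferase genes of the coactivator group, moved in opposite directions against P1. Kat2a measured 9.49 and 8.20 CPM in P1 and between 28.1 and 48.4 CPM elsewhere, whereas Kat2b measured 118 and 112 CPM in P1, 61.3 and 67.8 CPM in P2 and between 8.49 and 27.8 CPM in P3, P4 and P5. P1 did not overlap with any other population for either gene. P4 exceeded P1 by 2.25 for Kat2a (SE 0.22, edgeR adjusted p = 0.000834) and differed from it by -2.43 for Kat2b (SE 0.30, edgeR adjusted p = 0.000908). None of the 4 glycosyltransferases beside Lfng was called in P2 against the rest.

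A list of 23 genes of the secretory program tied to Atoh1 passed the filter in full. In P2 against the rest 20 were higher and none was lower, beside 17.1% and 11.1% of all genes. The median log2 fold change was 3.29 against -0.0027 for all genes. Muc2, Tff3, Agr2, Neurod1, Pou2f3 and Gfi1b are also among the goblet, tuft and enteroendocrine markers summed above, so this count in part repeats those sums. Against P4 alone, 14 of the 23 were higher in P2 and 1, Neurog3, was lower, beside 1276 and 932 of all 13706 genes. Spdef, a factor of goblet and Paneth maturation, measured 283 and 258 CPM in P2 and 9.03 to 30.8 CPM elsewhere (3.99, SE 0.22, edgeR adjusted p = 6.21e-06). Gfi1, a repressor of the enteroendocrine fate downstream of Atoh1, measured 62.8 and 57.3 CPM in P2 and at most 9.99 CPM elsewhere (3.51, SE 0.38, edgeR adjusted p = 0.000114). Both genes separated P2 from the other 8 libraries. Cbfa2t3, a corepressor, rose by 3.93 (SE 0.22), Rab3d, of regulated secretion, by 3.77 (SE 0.33), and Foxa2, a forkhead factor, by 3.45 (SE 0.39), each with an edgeR adjusted p of at most 0.000114.

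The remaining named genes of the list varied more between the P2 libraries. Muc2, the goblet mucin, measured 7635 and 13530 CPM in P2 and 157 to 1140 CPM elsewhere, and Neurod1, an enteroendocrine factor, 20.4 and 59.3 CPM in P2 and 0.836 to 5.90 CPM elsewhere. Pou2f3, the factor of tuft cells, measured 16.2 and 38.6 CPM in P2, at most 6.25 CPM elsewhere and had no read in P3. For each of these 3 genes the second P2 library was the higher, and both P2 libraries were above the other 8. In P4 against P1, 5 of the 23 genes were higher (Cbfa2t3, Creb3l1, Neurog3, Sox4 and Sox9) and Klf4 was lower, where 25.0% of all genes were called.

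The genes whose pattern was most like that of Atoh1, by Pearson's r of log2 CPM over the 10 libraries, were Selm (0.993), Rcan3 (0.993), 5330417C22Rik (0.992), Rap1gap (0.990) and Sgsm1 (0.990). Their mean levels in P2 ran from 55.7 CPM for Sgsm1 to 990 CPM for 5330417C22Rik, and in P4 and P5 from 7.48 to 93.6 CPM for the same genes. The genes most like Hes1 were Lipg (0.986), Clspn (0.986), Cep250 (0.985), Tbrg4 (0.984) and Far2 (0.984). Lipg averaged 1.70 CPM in P2, 5.63 CPM in P1, 27.1 CPM in P4 and P5 and 29.7 CPM in P3, an order close to that of Hes1. These values describe 10 libraries of 5 populations, so the points of a population share their sort gate.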

How the data were processed

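Poly-A RNA of 10000 sorted cells per library was sequenced in 2 replicates of 5 populations. The authors deposited raw counts per gene, made with TopHat2 2.1.0 (with Bowtie) on mm9 and HTSeq 0.11.2 on exons, without strand and without reads that aligned to more than 1 place, so paralogs and overlapping genes are uncertain. FastQC 0.11.5 is named for quality checks. Samples were grouped by title. No age or animal was given, so p-values measure the spread between these libraries, which may be technical.

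The 206 rRNA names were removed, as in the study's methods, and a row without a gene name held 0.000192% to 0.000596% of counts and was left out. Genes passing filterByExpr (13706) were scaled with TMM and fitted over all 10 libraries with edgeR 4.0.16 (R 4.3.3). Contrasts were tested with its quasi-likelihood test, with Benjamini-Hochberg adjustment at 0.01. The design left 5 residual degrees of freedom, and the test adds prior degrees of freedom estimated over all genes. Standard errors were derived from the F statistics. CPM values are TMM-normalized, and per kb refers to GENCODE exons (NCBIM37), in which 33643 of 35006 names were found. With the floor of 3 counts, the smallest level seen was 0.298 to 1.59 CPM per library, which covers counting error only. DESeq2 1.42.0 was an alternative, as were other scalings, no filter, mitochondrial genes removed, rRNA genes kept, a legacy quasi-likelihood estimate, a threshold of 0.05, a replicate block, the pair alone, both P3 libraries left out, and each library left out. The code was tested on simulated data. Tables and figures used Python 3.11.15, pandas 2.3.3, numpy 2.4.6 and matplotlib 3.10.9.

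The 10 genes and all lists were chosen with earlier results of these data known. Beside the 10, genes were named by rule: up to 12 pathway and 8 secretory genes called across populations with the largest range of fitted means, Hes5, and the 5 genes most correlated with Atoh1 and with Hes1.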

Additional observations from a re-analysis of the deposited data

Results flagged for a closer look

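Among the genes named, 2 differed between OSCAR levels in their EF1a difference, by the term P5 minus P4 less P3 minus P1, which was chosen after seeing the data and compares EF1a levels only if the P3 label holds. For Kat2a the P5 minus P4 difference was 0.09 and the P3 minus P1 difference 2.34, a difference of -2.25 on the log2 scale (SE 0.30, edgeR adjusted p = 0.00852). For Kat2b the differences were 0.26 and -3.06, which gave 3.32 (SE 0.43, edgeR adjusted p = 0.00852). P3, with its high mitochondrial share, and P1, with its lymphocyte markers, both enter this term, and their part was not tested. Over 8 other settings both genes stayed past the threshold, and with 1 library left out they passed in 2 of 10 fits each (edgeR adjusted p = 0.00962 to 0.0545). Groups of 2 libraries are too small for a check on single samples that stand apart.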

How the results depend on the processing

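The counts of genes called across populations (6 to 7), in P2 against the rest (5 to 8) and over the 10 pairs (22 to 40) stayed within 1.5 times their values over the alternatives run, and so did the secretory list (17 to 22). The P3 count of 1 was 0 with DESeq2 size factors, with no filter, with mitochondrial genes removed and with the legacy estimate, 2 with the DESeq2 test, 3 at a threshold of 0.05, and 0 to 0 with a library left out. The pathway count of 26 ran from 14 to 31 with a library left out. Dll1, Dll4, Notch2 and Atoh1 kept direction and call in P2 under every alternative run. Jag1 turned to -0.13 without P1 replicate 1, -0.25 without P2 replicate 1 and -0.07 without P3 replicate 2, in a range of -0.25 to 0.68. With a library left out, Notch1 ran from -2.36 to -2.08 and lost its call without P2 replicate 2 (-2.18, edgeR adjusted p = 0.01004), and Hes1 ran from -1.85 to -1.53. Lfng ran from 1.16 to 1.498, and passed with the DESeq2 test (1.34), with mitochondrial genes removed (1.32) and, as did Jag2 (1.20), at 0.05 (1.29). The cause was not tested. Deviations of libraries with the same number correlated at -0.06 to 0.55 (above 0.1 in 9 of 10 pairs of populations), and no label says that equal numbers share an animal or a sort, so pairing remained unsettled and the block is given as an alternative. With the replicate block the counts were 6, 6 and 1 across populations, for P2 and for P3, and Hes1 was also called between P3 and P1 and between P5 and P1. Of all genes, the block called 6 between P4 and P3, 6 between P5 and P3 and 1 between P5 and P4, where none passed without it. Low counts limit Jag2, Notch2 in P2, and Atoh1, Dll4 and Lfng in P3 replicate 1, with 6 reads each.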
